A study of Mus musculus with 15 samples.

Results

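The 12 stomach tumors of a genetically engineered mouse model were ordered by their level of Cxcl5, and the 4 with the highest level were set against the 4 with the lowest, 8 tumors of 15 libraries in all. Members were chosen by the measured Cxcl5 count divided by all counts of the same library, so the groups come from the data and not from a label, and nothing in the comparison of these groups carries a test. Cxcl5 itself was left out of every count of genes. The animals were C57BL/6 mice labelled as 7 to 8 weeks old, carrying Pou2f3-CreERT, Rb1 fl/fl, Trp53 fl/fl and LSL-MycT58A. They were given 50 mg/kg tamoxifen into the abdomen for a single day, and tissue was taken 5 weeks after induction. The Pou2f3 promoter drives a tamoxifen-dependent Cre in tuft cells, a chemosensory cell type of the gut, so that Rb1 and Trp53 are deleted and a stabilized Myc is switched on only in cells with Cre activity. The labels give the same genotype and the same tamoxifen to the normal stomach tissue, which is therefore not tissue of untreated or wild-type animals. There were 3 libraries each of normal tissue and of tumors in the antrum, in the corpus, and at the cardia boundary on the greater and on the lesser curvature, named here by site and number. The labels call the replicates biological without saying which came from separate animals, so the spread between samples, and each p-value below, may be partly technical.

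CXCL5 is a chemokine that binds the receptor CXCR2 and draws neutrophils out of the blood. In mice it shares this receptor with the products of Cxcl1, Cxcl2, Cxcl3 and Ppbp, which lie beside it on the same chromosome. In epithelium these ligands are commonly induced by interleukin 1, interleukin 17 and tumor necrosis factor, acting through NF-kB and AP-1 transcription factors. The title of the study names CXCL5 inhibition in this tumor, which combines neuroendocrine and non-neuroendocrine parts. The question here is descriptive: which other transcripts were high where Cxcl5 was high.

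The Cxcl5-high tumors were, in order, greater curvature 2 with 1765 Cxcl5 counts, lesser curvature 2 with 324, corpus 2 with 395 and antrum 3 with 373. As counts in every 1e+06 of the library these were 81.8, 40.7, 22.8 and 21.7, a mean of 41.7 ± 28.1 (SD, n = 4). The Cxcl5-low tumors were corpus 3 with 141 counts, antrum 2 with 112, corpus 1 with 75 and antrum 1 with 9, or 7.90, 6.54, 4.84 and 0.629 in 1e+06, a mean of 4.98 ± 3.16 (SD, n = 4). The 4 middle tumors, greater curvature 3, lesser curvature 3, greater curvature 1 and lesser curvature 1, held 21.1, 17.9, 15 and 9.43 in 1e+06. The normal libraries held 1, 6 and 5 counts. The lowest tumor, antrum 1, had more Cxcl5 counts than any normal library, but its exact Poisson 95% interval of 0.288 to 1.19 in 1e+06 overlapped theirs. Such intervals cover counting error only.

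Neither border was a gap. The lowest of the high group (21.7, interval 19.5 to 24) and the highest of the middle tumors (21.1, interval 18.9 to 23.5) had overlapping intervals, as did lesser curvature 1 (9.43, interval 8.00 to 11) and corpus 3 (7.90, interval 6.65 to 9.32). Ranking by the deposited TPM gave the same groups, whereas ranking by counts in 1e+06 of the TMM-scaled library size (CPM, the scale used below) exchanged corpus 3, at 7.62, for lesser curvature 1, at 7.57. The sites were spread unevenly: the high group held 1 tumor of each site, and the low group 2 antrum and 2 corpus tumors. Replicate number 2 was carried by 3 of the 4 high tumors and 1 of the 4 low tumors, and what a number stands for beyond its replicate is not given in the labels. Low Cxcl5 and a place in the antrum or corpus therefore partly coincide and cannot be told apart, so the highest and the lowest tumor inside each site are also compared. Against normal tissue Cxcl5 was higher in the tumors by 5.71 on the log2 scale (SE 1.31, edgeR's quasi-likelihood test, adjusted p = 0.00901), and all 12 tumors enter that test.

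**Figure D1:**
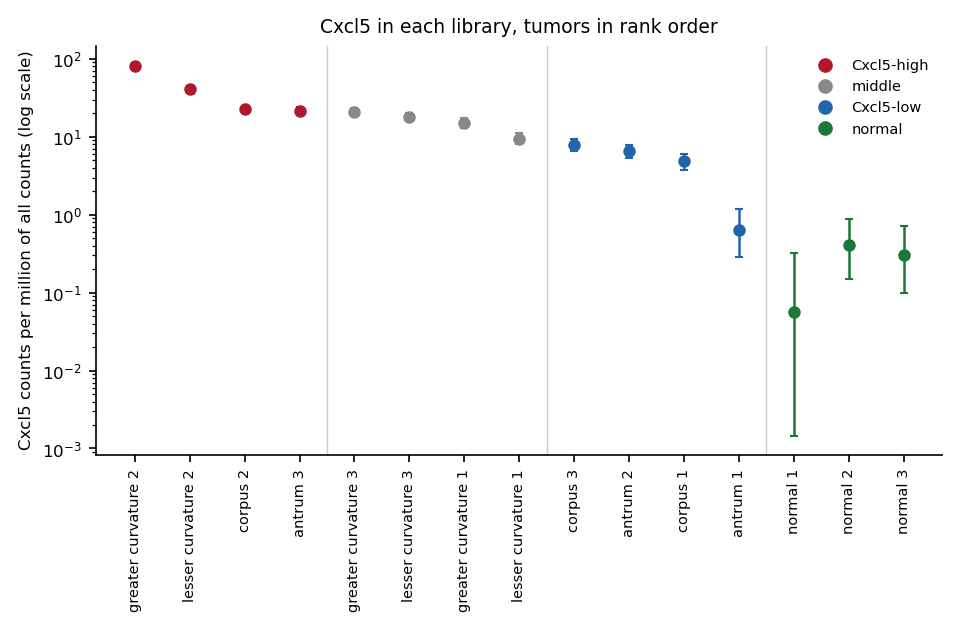
Cxcl5 counts in every 1e+06 counts of each library (y axis, log scale), with tumors in rank order and normal tissue at the right (x axis); bars are exact Poisson 95% intervals. The 4 Cxcl5-high tumors run from 81.8 down to 21.7 and the 4 Cxcl5-low tumors from 7.90 down to 0.629, with no gap at either border of the middle tumors.

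Lesser curvature 2 had the fewest counts, 7957165, and greater curvature 2 the most, 21564972, and 16224 of 36144 genes passed the filter on low counts. Across libraries greater curvature 2, a high tumor, and corpus 1, a low tumor, stand apart from the other tumors, having little neuroendocrine RNA. Syp was at 5.71 CPM in greater curvature 2 and 13.2 in corpus 1, beside 13.5 to 20.0 in the normals, while the other 10 tumors lay between 39.2 and 132. Antrum 1 (low) and lesser curvature 1 (middle) stand apart in another way, in the summed level of the 11 pan-epithelial markers. Sums over marker lists, here and below, use library totals without TMM. They were 285 and 319 in these tumors, beside 2510 or more in every other tumor. Counts of the Y-linked genes Ddx3y, Uty and Eif2s3y together ran from 1139 to 2604 in the 4 high tumors and reached 2385 in the low tumors, where antrum 1 was the exception with 11, so the sex of the animals was not balanced between the groups. Of the 12 tumors 9 had such counts at 100 or more, and of the 3 normal libraries 1 had. Tumors and normal tissue were therefore not balanced in sex either. In bulk tissue a lower value can mean fewer cells of a type or less RNA per cell, which cannot be told apart.

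Genes were called separated when all 4 high tumors lay above, or all 4 below, all 4 low tumors in log2 CPM. Of 16223 genes, 203 were separated and higher in the Cxcl5-high tumors, 1.25 percent of those tested, and 63 were separated and lower, 0.388 percent. These shares are the background against which every list below has to be read. Any split of 4 against 4 tumors also separates some genes, and these shares were not compared with other splits. The counts alone therefore do not tie the genes to Cxcl5. The higher genes were far apart: 134 differed by at least 2-fold and 53 by at least 4-fold in mean level, with a median difference of 1.48 on the log2 scale. The lower genes were close together, 9 of the 63 at 2-fold or more, with a median of -0.44. Over all genes the median difference was 0.01. The mean of the 4 middle tumors lay between the means of the outer groups for 129 of the 203 higher genes (63.5%) and 32 of the 63 lower ones (50.8%), compared with 13.4% of all genes. Separated genes were picked for a gap between the outer groups, which leaves more room between the means. The contrast with all genes is therefore partly built in and is no measure of grading with Cxcl5.

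The same tumors were then compared inside each site, antrum 3 with antrum 1, corpus 2 with corpus 1, greater curvature 2 with greater curvature 1 and lesser curvature 2 with lesser curvature 1. In all 4 sites 976 genes were higher in the tumor with more Cxcl5, 6.02 percent of all, and 734 were lower, 4.52 percent. Some genes go one way in all 4 sites under any choice of pairs, and other choices were not compared. Among separated genes 151 of 203 (74.4%) and 39 of 63 (61.9%) went the same way in all 4 sites; antrum 3, corpus 2, greater curvature 2, lesser curvature 2, corpus 1 and antrum 1 serve in both comparisons, so these shares are not independent support. The labelled sites themselves gave 0 genes at an adjusted p under 0.05 in edgeR's F test among the 4 tumor sites; 947 genes had an unadjusted p under 0.05, and DESeq2 called 164.

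The neighboring CXCR2 ligands went with Cxcl5. Of the 5 tested ligands 4 were separated and higher, namely Cxcl1, Cxcl2, Cxcl3 and Ppbp, and the median difference over the 5 was 2.40, beside 0.01 for all genes. On GRCm38 Cxcl5 (chr5:90759360-90761624), Ppbp, Pf4, Cxcl3, Cxcl15, Cxcl1 and Cxcl2 are the 7 protein-coding genes of a stretch of 146.578 kb on the plus strand of chromosome 5, and all 7 were tested. Within it the 2 genes that were not separated stand between those that were: Pf4, a platelet chemokine that is not a main CXCR2 ligand, differed by 0.54, and Cxcl15, known from lung epithelium, by 0.02.

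Cxcl1, a main neutrophil attractant of mouse epithelium and stroma, stood at 23.3, 7.72, 13.2 and 23.3 CPM in the high tumors, in the order in which they are listed above. In the low tumors it stood at 6.49, 0.932, 5.77 and 3.13 CPM, and in the normals at 0.514, 0.262 and 0.306. The groups did not overlap (16.9 ± 7.74 against 4.08 ± 2.55, SD, n = 4 each), although lesser curvature 2 was close to corpus 3. Cxcl2, made by macrophages and neutrophils as well as epithelium, was at 14.6, 9.06, 9.42 and 19.2 CPM in the high and 3.24, 1.52, 1.19 and 4.30 in the low tumors. Cxcl3 was at 7.95, 3.58, 4.99 and 10.9 CPM in the high and 1.08, 0.991, 0.949 and 0.676 in the low tumors, the low group with the smallest spread in CPM of the 4 ligands. Ppbp, which platelets and myeloid cells release and which is processed into a CXCR2 ligand, was at 8.51, 9.40, 3.42 and 1.49 in the high and 0.595, 0.117, 0.0791 and 0.922 in the low tumors. It was the only ligand of the 4 that was higher in the Cxcl5-richer tumor of all 4 sites; Cxcl1 and Cxcl3 were so in 3 sites and Cxcl2 in 2.

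The middle tumors had these ligands at levels as high as the high tumors. Their Cxcl1 was at 17.7, 16.7, 16.8 and 14.1 CPM and their Cxcl2 at 19.6, 20.0, 15.1 and 31.4, so lesser curvature 1, which is next to the low group in Cxcl5, held the most Cxcl2 of any tumor. The summed level of the 5 ligands, on library totals without TMM, ran from 32.3 to 58.5 in the high tumors and from 40.0 to 72.7 in the middle tumors. It ran from 4.38 to 12.1 in the low tumors and from 0.951 to 3.09 in the normals. TMM factors were 1.089 to 1.247 in the middle and 0.9107 to 1.124 in the high tumors, so most middle sums are raised relative to the high ones. The 4 ligands therefore set the 4 low tumors, all from antrum or corpus, below the 8 others and did not grade with Cxcl5 among those 8. Over all genes 48 had this pattern, 0.296 percent of those tested, and all 48 are among the 203 by definition. They include Cxcr2, Il1a, Il1b, Csf3, Ltf, Lcn2, Saa3, Hp, Cd14, Arg1, Nos2 and Mmp13. For the 4 ligands the separation was lost once a middle tumor joined the low group. Cd14, Nos2 and Mmp13, which have the same pattern, stayed separated under the CPM ranking. For Nos2 this could not fail, since its high tumors lay above all 8 others. Lesser curvature 1 entered the low group under the CPM ranking and without greater curvature 2 and corpus 1, and 0 of the 5 ligands were then separated, with medians of 1.91 and 1.69. It also entered when any 1 of the 4 low tumors was left out, and with 6 against 6 tumors, again with 0 of 5 separated. Among tumors with Y-linked counts lesser curvature 3 entered in place of antrum 1, and 0 of 5 were separated with a median of 1.77. Cxcr2 was not separated either under the CPM ranking, without greater curvature 2 and corpus 1, with 6 against 6 tumors or among tumors with Y-linked counts. Without lesser curvature 2 all 4 ligands stayed separated, with a median of 2.68. This could not fail, since greater curvature 3, which then joined the high group, lay above the 4 low tumors in each ligand. Antrum 3 and corpus 2 are the high tumors from the same sites as the low group. That they were above all 4 low tumors in each of the 4 ligands follows from the definition of separated.

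**Figure D2:**
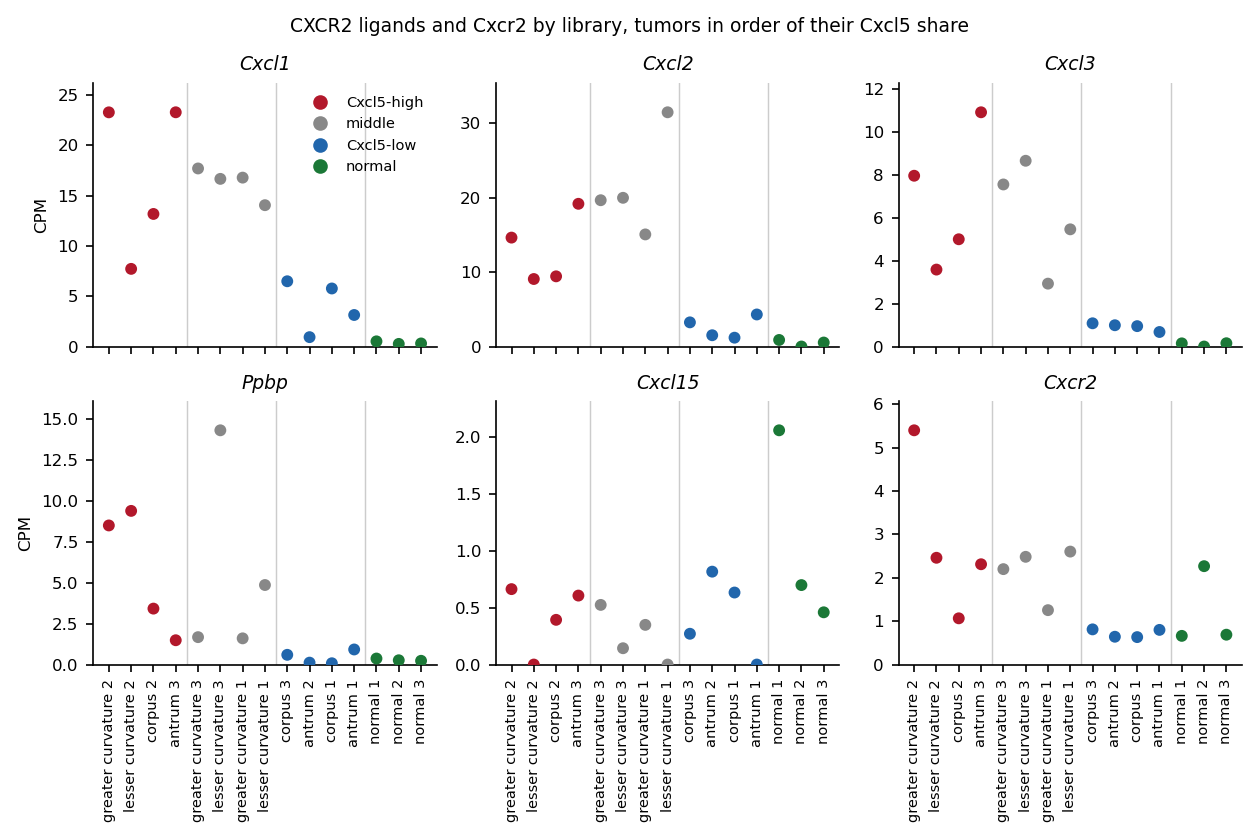
CPM of the 5 tested CXCR2 ligands other than Cxcl5 and of Cxcr2 (y axis, linear) in each library (x axis, tumors in order of their Cxcl5 share, normal tissue last). The 4 Cxcl5-low tumors sit below the 8 other tumors for Cxcl1, Cxcl2, Cxcl3, Ppbp and Cxcr2, whereas the middle tumors are as high as the Cxcl5-high ones.

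All 4 ligands were also higher in the tumors than in normal stomach, by 4.99 for Cxcl1 (SE 0.96, edgeR adjusted p = 0.00481), 5.30 for Cxcl3 (SE 1.24, adjusted p = 0.00969), 4.44 for Cxcl2 (SE 1.10, adjusted p = 0.0119) and 3.13 for Ppbp (SE 1.10, adjusted p = 0.0471) in edgeR's quasi-likelihood test on the log2 scale. Over all genes 16.2 percent were called higher in tumors and 15.7 percent lower. The Cxcl2 call was lost without normal 3 (edgeR adjusted p = 0.0503). The Ppbp call was lost when any library other than antrum 2, greater curvature 2 and corpus 1 was left out, with edgeR adjusted p from 0.0518 to 0.146. It was also lost with no filter (edgeR adjusted p = 0.0568) and with the replicate number as a block (edgeR adjusted p = 0.0597).

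The promoters of Cxcl1, Cxcl2 and Cxcl3 are shown because the 3 genes were separated together and carry the same decamer just upstream of the start; the promoters of Il6 and Mmp13, described below, are shown beside them. The sequences are RefSeq windows of GRCm38.p6, 250 bases before to 50 after the annotated start, all on the plus strand. Capitals mark matches on either strand to the NF-kB-like letters, which are GGG, any 2 bases and TTTCC, or the AP-1-like letters TGANTCA.
Cxcl1, chr5:90890995-90891294: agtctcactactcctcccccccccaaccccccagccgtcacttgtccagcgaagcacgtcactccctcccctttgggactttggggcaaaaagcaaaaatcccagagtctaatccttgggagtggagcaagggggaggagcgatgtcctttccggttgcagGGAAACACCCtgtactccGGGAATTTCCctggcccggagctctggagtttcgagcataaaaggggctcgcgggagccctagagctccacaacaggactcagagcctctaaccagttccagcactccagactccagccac
Cxcl2, chr5:90903649-90903948: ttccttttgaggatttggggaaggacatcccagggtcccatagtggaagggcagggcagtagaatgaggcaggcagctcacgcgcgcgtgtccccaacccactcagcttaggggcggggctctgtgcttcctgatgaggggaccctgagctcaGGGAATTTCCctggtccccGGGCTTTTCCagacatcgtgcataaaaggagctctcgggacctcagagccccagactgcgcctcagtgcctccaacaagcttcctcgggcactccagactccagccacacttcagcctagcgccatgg
Cxcl3, chr5:90785851-90786150: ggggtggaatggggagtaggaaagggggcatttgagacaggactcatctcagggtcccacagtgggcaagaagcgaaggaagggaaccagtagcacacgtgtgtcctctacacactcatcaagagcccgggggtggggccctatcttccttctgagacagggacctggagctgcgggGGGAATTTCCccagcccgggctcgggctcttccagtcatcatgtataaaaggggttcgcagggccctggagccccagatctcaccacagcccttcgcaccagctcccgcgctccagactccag
Il6, chr5:30012864-30013163: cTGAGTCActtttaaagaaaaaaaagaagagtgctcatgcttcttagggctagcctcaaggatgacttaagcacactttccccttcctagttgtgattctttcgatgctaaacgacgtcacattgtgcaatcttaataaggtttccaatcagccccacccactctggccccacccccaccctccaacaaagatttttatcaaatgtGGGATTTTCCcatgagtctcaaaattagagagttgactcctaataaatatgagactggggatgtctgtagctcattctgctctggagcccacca
Mmp13, chr9:7272264-7272563: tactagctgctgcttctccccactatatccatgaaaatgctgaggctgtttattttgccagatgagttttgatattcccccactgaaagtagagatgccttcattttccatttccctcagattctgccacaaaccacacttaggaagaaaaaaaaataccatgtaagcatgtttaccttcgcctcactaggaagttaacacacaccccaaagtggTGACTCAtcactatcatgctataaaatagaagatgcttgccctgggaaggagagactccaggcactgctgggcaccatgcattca
The decamer GGGAATTTCC starts 71 bases upstream of the start of Cxcl1, 97 bases upstream of Cxcl2 and 73 bases upstream of Cxcl3, and the matches in Il6 and Mmp13 nearest to the start lie at 44 and 35 bases. Of the 203 separated higher genes 114 have a window in the table, and 5 of them (4.39%) hold the NF-kB-like letters, namely Casp4, Cxcl1, Cxcl2, Cxcl3 and Il6, compared with 2.01% of the windows of tested genes and 1.89% of all windows. The AP-1-like letters were in 20 of 114 (17.5%), compared with 7.04% of tested genes and 8.97% of all windows, and in 2 of 48 windows of the lower genes (4.17%). The letters TATAAA, a core promoter spelling searched in the same way, gave a like contrast, with 21 of 114 (18.4%), compared with 9.94% of tested genes, 15.7% of all windows and 2 of 48 lower genes (4.17%). The genes with AP-1-like letters include Il6, Il11, Il1a, Lif, Ppbp, Mmp13 and Selp. These spellings were chosen after the genes were known, and a match is a string of letters and not a measured binding site. Cxcl5 and Csf3 are not in the table of windows.

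The receptor had the same shape at a low level. Cxcr2, the receptor by which neutrophils sense these chemokines, was at 5.40, 2.46, 1.07 and 2.31 CPM in the high and 0.811, 0.641, 0.632 and 0.799 in the low tumors, a difference of 1.59 with no overlap. The normals held 0.661, 2.27 and 0.688 CPM, and Cxcr2 was not called between tumors and normal tissue (log2 difference 0.48, edgeR adjusted p = 0.498). Ackr1, the endothelial decoy receptor for these ligands, was at 0.785 to 1.82 CPM in the high and 0.703 to 1.17 in the low tumors and was not separated. It was lower in tumors than in normal tissue by 2.20 (log2, edgeR adjusted p = 0.00304).

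Other chemokines, which draw other leukocytes, had a higher mean in the high tumors for all 14 tested, with a median of 0.75, and 1 was separated. That gene, Ccl4, was at 1.02, 1.90, 1.68 and 1.27 CPM in the high and 0.541, 0.583, 0.237 and 0.922 in the low tumors. Lesser curvature 1, a middle tumor, held the most at 2.06 CPM, so Ccl4 did not grade with Cxcl5 over all tumors.

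Neutrophil markers gave a mixed result. Of 14 tested markers 2 were separated and higher, Ltf and Il1r2, 11 had a higher mean, and the median difference was 1.17. The alarmins S100a8 and S100a9, abundant in neutrophils, differed by 3.28 and 3.19 but overlapped: S100a8 was at 8.92, 21.9, 1.96 and 9.97 CPM in the high and 1.08, 0.233, 0.0791 and 5.29 in the low tumors, with antrum 1 above corpus 2. Csf3r, the receptor of the neutrophil growth factor, was at 12.2, 2.35, 2.86 and 3.80 against 3.57, 1.17, 1.82 and 1.91 CPM, a difference of 1.06. Greater curvature 2 was far above the other high tumors, and lesser curvature 2 and corpus 2 lay below corpus 3. The granule gene Ngp was at 0.44 CPM or less in every high tumor and differed by -0.23, and Retnlg, made by mature neutrophils, differed by -0.08. The summed level of the list, on library totals without TMM, overlapped widely. It was 67.0 to 658 in the high and 30.5 to 589 in the low tumors. The top low value came from Hdc in corpus 3 (549 CPM), a gene that gastric endocrine cells also express. The top high value, 658 in greater curvature 2, came mostly from Ltf (567 CPM), a gene that glandular epithelium also expresses. Without greater curvature 2 and corpus 1 the median was 0.49 and 0 of 14 markers were separated. Ltf, lactoferrin, is a secreted iron-binding protein of neutrophil granules and of glandular epithelium. It was at 567, 148, 17.2 and 6.66 CPM in the high and 1.41, 4.2, 1.42 and 0.246 in the low tumors, and lesser curvature 3, a middle tumor, held 56.0.

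The list of neutrophil growth factors and inflammatory cytokines had 6 separated members, the most of any list. All 12 tested members had a higher mean in the high tumors, the separated ones were Csf3, Il1a, Il1b, Il6, Il11 and Lif, and the median difference was 1.49. Il1b, the macrophage cytokine that induces CXCR2 ligands, was at 37.0, 9.40, 13.7 and 17.1 CPM in the high and 8.87, 2.21, 4.19 and 4.12 in the low tumors. Lesser curvature 2 and corpus 3 nearly met. Il1a, the related epithelial alarmin, was at 13.7, 6.71, 3.31 and 7.21 against 2.43, 1.11, 2.77 and 0.983 CPM. Il6 showed the widest difference of the list, 3.02, with 9.48, 3.80, 6.23 and 10.5 CPM in the high and 2.76, 0.0583, 0.474 and 1.72 in the low tumors.

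Further cytokines of the interleukin 6 family, which act through the shared receptor gp130, were separated as well. Il11 was at 14.4, 17.1, 27.3 and 13.5 CPM against 11.4, 8.86, 11.5 and 0.430, and Lif at 11.9, 9.96, 12.3 and 8.92 against 5.46, 5.30, 5.61 and 2.70. The Lif groups were each tight, at 10.8 ± 1.60 and 4.77 ± 1.38 CPM (SD, n = 4). Osm, of the same family, was at 2.96, 0.559, 1.35 and 3.30 against 1.08, 0.641, 0.712 and 1.23 CPM and overlapped. Csf3, which encodes the neutrophil growth factor G-CSF, was low everywhere, at 0.866 to 3.03 CPM in the high and 0 to 0.861 in the low tumors, and the 4 middle tumors, with 1.86 to 5.5 CPM, had a higher mean (3.78) than the high group (1.63). Tnf was at 4.89, 1.34, 1.29 and 1.10 against 0.595, 1.28, 2.13 and 0.492 CPM and was not separated. Il33, an epithelial alarmin, was at 243 to 496 CPM in the high tumors, 5.21 to 145 in the middle tumors and 192, 269, 454 and 0.738 in the low tumors, so its difference of 2.51 rested on antrum 1. In edgeR's test against normal tissue the tumors were higher in Il1b by 3.52 (adjusted p = 0.00694), Il11 by 3.27 (adjusted p = 0.0137) and Lif by 2.35 (adjusted p = 0.00755), all on the log2 scale. Without greater curvature 2 and corpus 1, 2 of the 12 cytokines, Il11 and Lif, were still separated, with a list median of 1.10.

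Of other inducible enzymes, Ptgs2 is on the list of NF-kB and interleukin 17 response genes, while Ptges, Ptger2 and Nos2 are on no list that was counted and were chosen for naming after their values were seen. Ptgs2, the inducible cyclooxygenase, was at 45.7, 65.9, 59.4 and 112 CPM in the high and 17.1, 33.6, 24 and 9.83 in the low tumors. Ptges, the synthase that makes prostaglandin E2 from its product, was at 15.2, 8.50, 8.69 and 28.0 against 6.00, 6.29, 5.53 and 1.48 CPM. Ptger2, a prostaglandin E2 receptor, was at 2.80, 2.24, 1.68 and 3.36 against 1.35, 1.17, 1.66 and 0.123 CPM, so corpus 2 and corpus 1 were almost level. Nos2, the inducible nitric oxide synthase, was at 5.86, 5.04, 5.05 and 11.8 against 1.35, 1.46, 0.316 and 0.861 CPM, and the middle tumors, at 3.10 to 4.08, lay between the groups without touching either. Ptges and Nos2 were higher in the Cxcl5-richer tumor of all 4 sites and Ptgs2 in 3. Against normal tissue Nos2 was higher in the tumors by 4.45 (SE 1.15, edgeR adjusted p = 0.0143).

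Of 17 tested NF-kB and interleukin 17 response genes 5 were separated (Tnfaip2, Lcn2, Saa3, Irak3 and Ptgs2), 16 had a higher mean, and the median was 0.83. Saa3, an acute phase serum amyloid made locally in inflamed tissue, was at 170, 16.8, 13.4 and 492 CPM in the high and 7.30, 5.54, 3.95 and 3.32 in the low tumors. Hp, which encodes the hemoglobin scavenger haptoglobin, had the same shape with 168, 6.94, 18.2 and 391 against 6.70, 3.09, 1.82 and 4.98 CPM. In both genes antrum 3 and greater curvature 2 carried most of the mean, and lesser curvature 2 lay close to the low group. Lcn2, which encodes an iron-sequestering protein of epithelium and neutrophils, was at 29.3, 17.9, 10.8 and 63.3 against 8.43, 2.39, 3.32 and 5.66 CPM, but lesser curvature 3 and greater curvature 1, both middle tumors, held the most at 86.6 and 94.0. Tnfaip2, a gene induced by tumor necrosis factor, ran from 20.9 to 49.8 CPM in the high and from 6.39 to 15.1 in the low tumors. The inhibitor gene Nfkbia, a direct NF-kB target, overlapped, at 54.3 to 73.2 against 33.3 to 55.7 CPM. Without greater curvature 2 and corpus 1, 2 of the 17 were separated, Tnfaip2 and Ptgs2.

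Matrix and wound genes included 2 of the differences that held across most rankings, Mmp13 and Inhba. Mmp13, a collagenase, was at 591, 116, 49.7 and 54.1 CPM in the high and 24.8, 36.9, 22.5 and 3.44 in the low tumors, a difference of 2.82. Its middle values, 45.9 to 151 CPM, overlapped the high group, and greater curvature 2 set the high mean of 203 ± 261 (SD, n = 4). Inhba, which encodes the activin A subunit, was at 64.1, 55.6, 55.0 and 94.3 CPM in the high, 40.4, 41.9, 28.7 and 15.9 in the middle and 25.9, 37.8, 21.9 and 5.16 in the low tumors, so the high tumors lay above all 8 others. Timp1, a metalloproteinase inhibitor, also had all 4 high tumors, at 16.2 to 50.2 CPM, above the 8 others, at 8.4 to 14.7. Plat, the tissue plasminogen activator, was at 57.2 to 118 against 8.54 to 46.1 CPM. Ereg, a ligand of the EGF receptor, was at 35.3, 45.0, 46.8 and 56.5 against 18, 22.3, 34.2 and 2.21 CPM, so greater curvature 2 and corpus 1 nearly met. Anxa1, a mediator that limits neutrophil entry, was at 172 to 374 against 18.9 to 162 CPM. In the list of 12 metalloproteinases and inhibitors 2 were separated and 11 had a higher mean, with a median of 1.02. The wound list had 3 of 17 separated with a median of 1.12. Ereg and Inhba were still separated without greater curvature 2 and corpus 1, Anxa1 was not, and Ly6a, which overlapped before, was added. Against normal tissue the tumors were higher in Mmp13 by 5.36 (SE 1.14, edgeR adjusted p = 0.0068), Inhba by 4.18 (SE 0.86, adjusted p = 0.00614) and Timp1 by 3.24 (SE 0.60, adjusted p = 0.004) on the log2 scale.

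**Figure D3:**
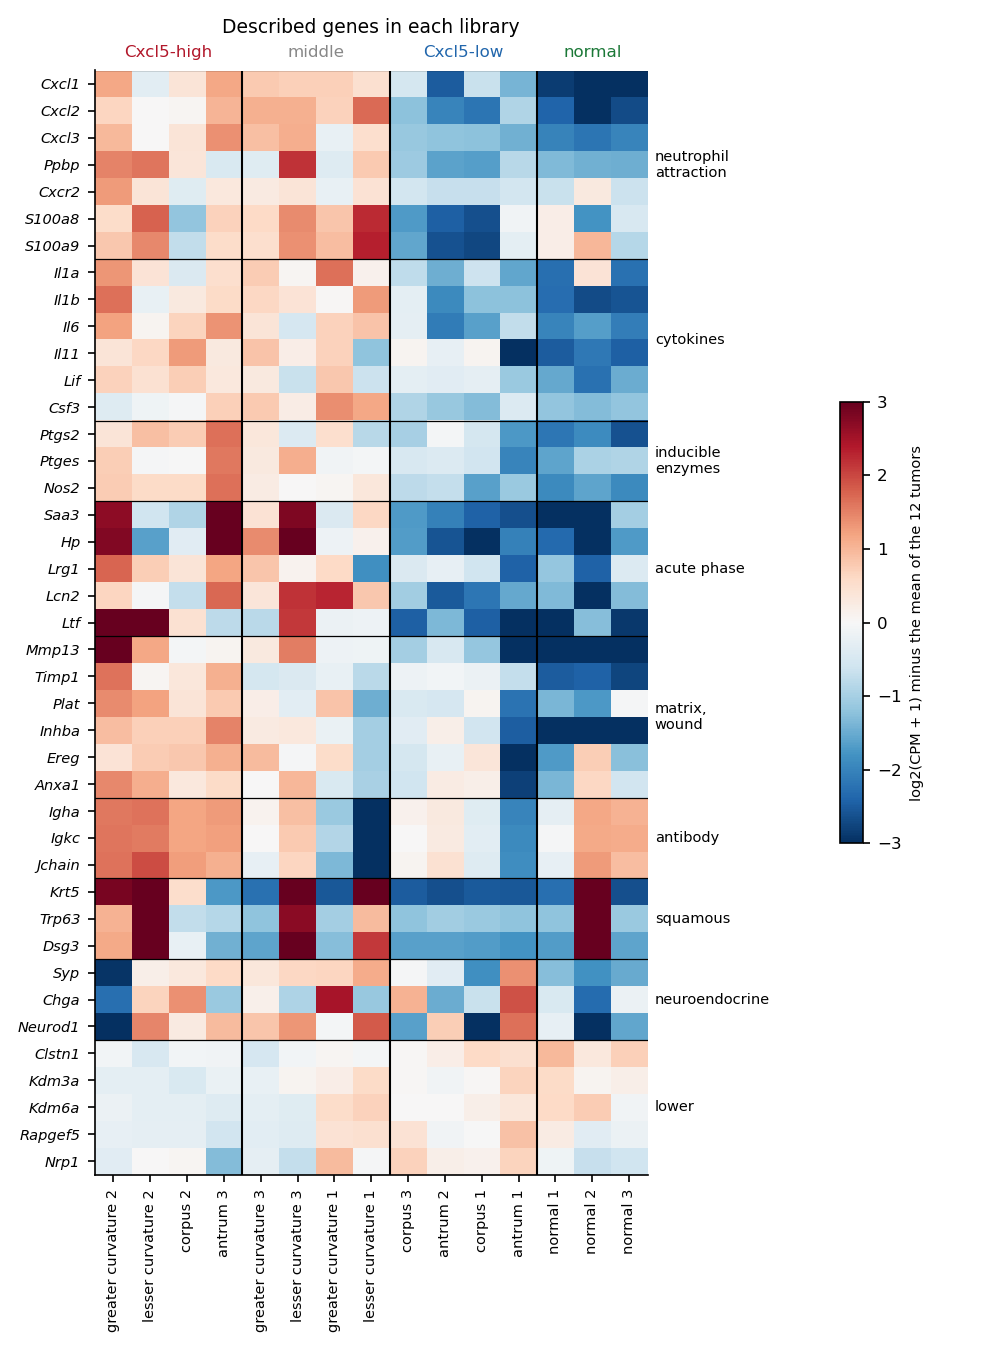
log2(CPM + 1) of described genes minus the mean of the 12 tumors (color, cut at 3 in either direction), with libraries in columns in order of their Cxcl5 share and genes in rows by role. The 4 Cxcl5-low columns are below the tumor mean for Cxcl1, Cxcl2, Cxcl3 and Ppbp, Krt5 is highest in normal 2, lesser curvature 2 and lesser curvature 3, and the genes at the bottom differ little.

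Few genes stayed separated under all the rankings and scalings that were tried. Inhba stayed separated when each tumor was left out in turn, with 3 against 3 and 6 against 6 tumors, without greater curvature 2 and corpus 1, under the TPM and CPM rankings and among tumors with Y-linked counts. It also stayed separated under both other scalings of library size, on log2 TPM, with no filter and with a prior count of 0.5. This held for 5 genes in all, the others being Clstn1, which was lower, and Ighg2b, Ighv1-22 and Igkv6-13. Some of these settings could not fail and add nothing to the result. With 3 against 3 tumors the groups are parts of the main groups. Under the TPM ranking, or when a middle tumor was left out, the groups were unchanged. The CPM ranking gave the same groups as leaving out corpus 3, so these settings count once. For Inhba and Igkv6-13 the high tumors lay above all 8 others, so settings that changed only the low group could not fail. These were leaving out a low tumor, the CPM ranking and the use of tumors with Y-linked counts. When only the leave-one-out rankings were asked for, 48 of the 203 higher and 18 of the 63 lower genes stayed separated, among them Mmp13, Nos2, Ptgs2, Ptges, Tnfaip2, Il11, Lif, Ereg, Plat, Cd14, Hif1a and Aldh1a3. For Mmp13, Nos2, Ptges and Cd14 the low tumors lay below the 8 others, so leaving out a high tumor could not fail. The high tumors also lay above the 8 others for Nos2, so none of its leave-outs could fail. With 6 against 6 tumors 16 higher and 6 lower genes were separated, and Mmp13, Inhba, Ptges, Tnfaip2, Chil1 and Glo1 were among the higher. These genes were named because they stayed separated and not by the naming rule alone.

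Antibody transcripts made up 35 of the 203 separated higher genes, with another shape than the ligands. This family was picked after the separated genes were seen. Of 91 tested immunoglobulin genes 0 were separated and lower, 89 had a higher mean, and the median difference was 1.5; many of the V segments are near-identical, so their single counts are uncertain and the constant genes are described instead. Igha, the constant region of mucosal IgA, was at 271, 281, 208 and 220 CPM in the high and 98.6, 111, 70.4 and 22.1 in the low tumors. Igkc, the kappa constant region, was at 208, 202, 155 and 160 against 68.2, 82.7, 54.5 and 17.2 CPM. Jchain, which joins IgA into dimers, was at 69.2, 86.9, 53.2 and 46.1 against 23.0, 30.0, 16.2 and 5.22 CPM.

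In these 3 genes the high tumors lay above all 8 others, since the middle tumors held 6.49 to 171 CPM of Igha, with the least in lesser curvature 1. Summed over the 91 genes the level was 489 to 666 CPM in the high, 14.7 to 374 in the middle, 53.5 to 271 in the low tumors and 180 to 461 in the normals. Each high tumor thus stood above the highest normal library, while the low and middle tumors overlapped the normals or lay below them. Igha was not called between tumors and normal tissue (log2 difference -0.23, edgeR adjusted p = 0.842). Having all 4 high tumors above the 8 others was found for 56 genes, 0.345 percent of those tested, and 27 of the 56 were immunoglobulin genes. Without greater curvature 2 and corpus 1, 6 of the 35 remained separated, since greater curvature 3, with a sum of 228, then joined the high group. Markers of B cells other than plasma cells were mostly below the filter: 4 of 7 listed markers were tested and 2, Jchain and Mzb1, were separated.

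Macrophage and monocyte markers as a list did not differ. Of 16 markers 2 were separated, Cd14 and Arg1, 6 had a higher mean, and the median was -0.05, next to 0.01 over all genes. Cd14, the lipopolysaccharide co-receptor, was at 35.7, 21, 16.7 and 18.6 CPM in the high and 11.6, 12.4, 12.5 and 4.24 in the low tumors, and it was higher in the Cxcl5-richer tumor of all 4 sites. Arg1, the arginase of alternatively activated macrophages that epithelium also makes, was at 22.1, 32.2, 6.06 and 10.3 against 2.97, 1.46, 1.5 and 3.81 CPM, with 31.2 in lesser curvature 3 and 16.7 in normal 2. Both T and NK cell markers that could be tested had a lower mean, with a median of -0.33. Mast cell markers had a median of 1.91 and 0 of 8 separated; Mcpt1, a mucosal mast cell protease, was at 48.1, 8.06, 39.5 and 21.9 against 1.46, 15.9, 34.9 and 0.0615 CPM.

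Squamous keratinocyte genes included the largest separated difference, 6.66 for Krt5, and rested on few tumors. All 20 tested markers had a higher mean in the high tumors, 4 were separated (Krt5, Trp63, Dsg3 and Krtdap), and the median was 3.08. In mice such epithelium lines the forestomach, which adjoins the glandular stomach at the cardia. Krt5, the basal keratin, was at 43.5, 320, 7.91 and 0.881 CPM in the high tumors and at 0 to 0.108 in the low tumors. It was at 155 in lesser curvature 3, 49.3 in lesser curvature 1, 0.314 in greater curvature 3 and 0.0697 in greater curvature 1, and at 333 in normal 2 beside 0.294 and 0 in the other normals. The 3 lesser curvature tumors, greater curvature 2 and 1 normal library thus held most of it. Dsg3, a desmosome protein, was at 6.62, 87.7, 1.96 and 0.275 CPM against 0 to 0.117, and Trp63, the regulator of basal cells, at 3.77, 29.1, 0.393 and 0.275 against 0 to 0.117. In antrum 3 both rest on 5 counts. Summed over the list on library totals without TMM, lesser curvature 2 held 4750. The other high tumors held 173 to 344, and the low tumors 21 to 187. Without lesser curvature 2 the median was 1.41 and 2 genes were separated, and without greater curvature 2 and corpus 1 it was 1.53 with 1 gene. The part of squamous tissue in the values of Ltf, Arg1, Anxa1, Slpi and other genes that such epithelium expresses was not tested; Slpi, an inhibitor of neutrophil elastase, was at 11.4, 35.0, 5.61 and 36.8 against 2.16, 1.11, 1.42 and 1.84 CPM, and at 170 in normal 2.

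**Figure D4:**
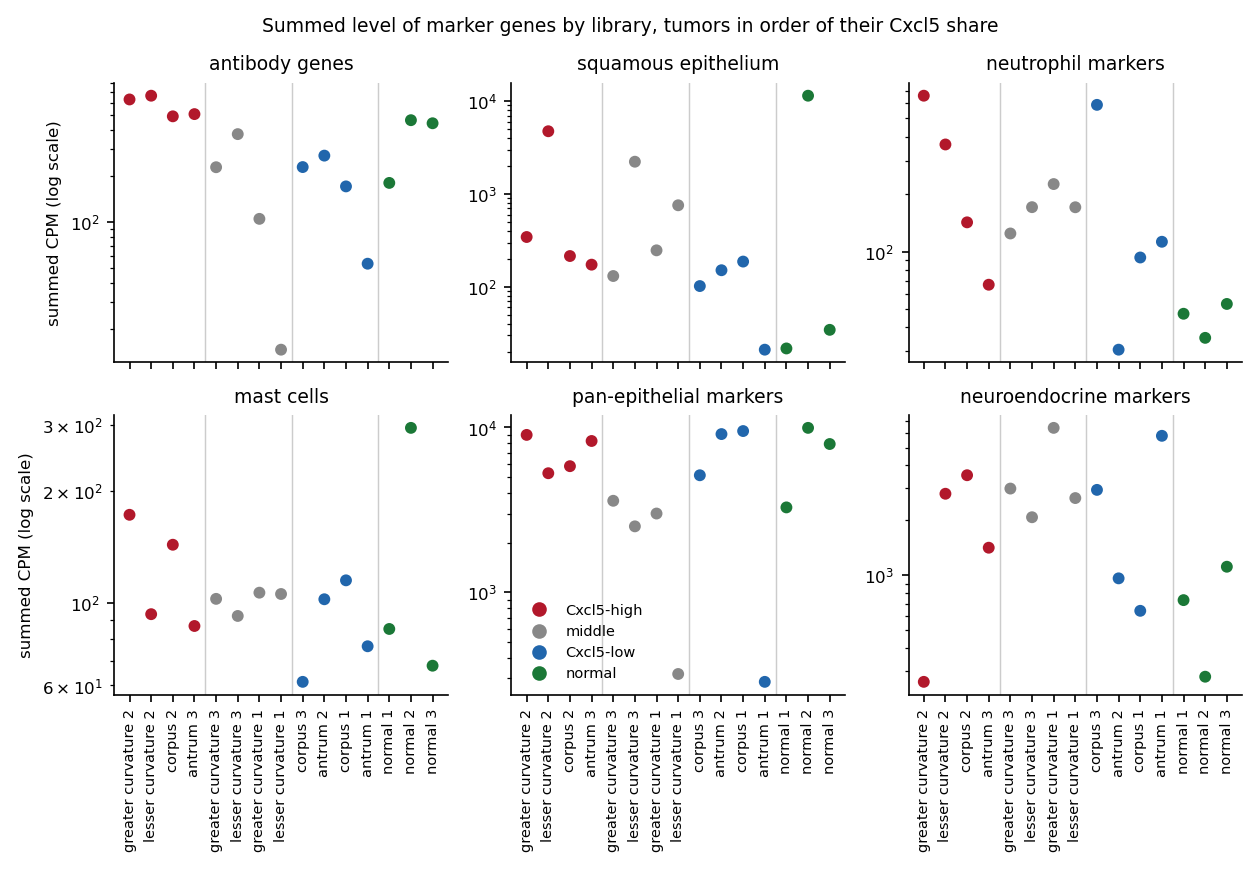
Summed level (y axis, log scale) of antibody genes and of 5 marker lists in each library (x axis, tumors in order of their Cxcl5 share, normal tissue last). Antibody sums are in CPM and list sums on library totals without TMM. The 4 Cxcl5-high tumors lie above the 8 other tumors for antibody genes, squamous markers are led by normal 2, lesser curvature 2 and lesser curvature 3, and neuroendocrine markers overlap between the groups.

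The engineered program did not separate the groups. Myc, which the transgene supplies, was at 103, 180, 140 and 347 CPM in the high and 231, 163, 95.2 and 475 in the low tumors, and it was higher, at 245 to 765, in the middle tumors. It is not known whether the counts of Myc include the transgene. Rb1 and Trp53, whose floxed alleles were to be deleted in cells with Cre, differed by 0.19 and -0.04; neither was called between tumors and normal tissue, where stroma and other cells keep the genes and a deleted exon leaves other exons to be counted. Pou2f3, the tuft cell regulator that drives the Cre, was at 2.75, 1.23, 1.51 and 0.991 CPM against 0.378, 0.991, 0.870 and 0.123, so antrum 3 and antrum 2 were level at the third digit and the separation is nominal. It was the only separated gene of 13 tested tuft cell markers, whose median was 0.89.

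Neuroendocrine markers overlapped. Of 23 tested 0 were separated and the median was -0.23. Syp, a vesicle protein, was at 5.71, 56.7, 62.5 and 76.2 CPM in the high and 48.7, 39.2, 13.2 and 132 in the low tumors. Neurod1, a neuroendocrine transcription factor, was at 0.560, 69.9, 30.0 and 48.3 against 7.35, 41.5, 1.5 and 79.4 CPM. Each group thus held 1 tumor that was low in both. The growth lists overlapped too: 0 of 27 DNA replication genes were separated with a median of -0.12, and 0 of 20 mitosis genes with a median of -0.17, although all 20 had a lower mean. Of the same genes all 27 and all 20 were called higher in tumors than in normal tissue by edgeR, against 16.2 percent of all genes. The 20 Myc targets of ribosome production had 0 separated and a median of -0.03, and 19 were called higher in tumors.

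**Figure D5:**
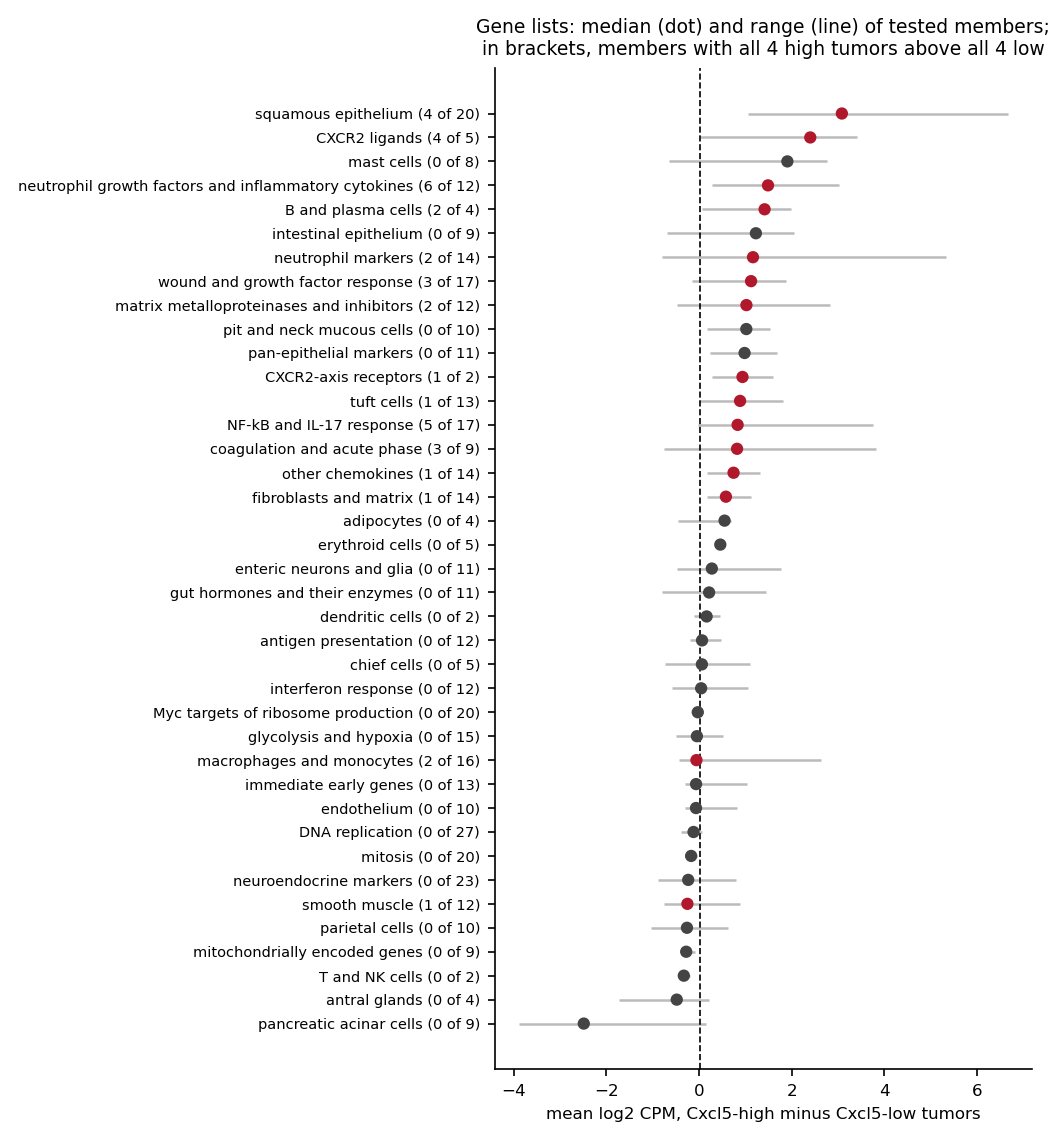
Difference in mean log2 CPM between Cxcl5-high and Cxcl5-low tumors (x axis) for 39 gene lists (y axis): dots are medians over tested members, lines run from the lowest to the highest member, red dots mark lists with a separated member, and the dashed line is the median of all genes, 0.01. Squamous epithelium (3.08) and CXCR2 ligands (2.40) lie farthest to the right and pancreatic acinar cells (-2.49) farthest to the left, with no separated member in the last.

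The 63 genes that were lower in the Cxcl5-high tumors differed by little, and 0 of them belonged to any list. The largest differences among those with at least 10 CPM in the low group were -1.02 for Frem2, an extracellular matrix protein of epithelial basement membranes, and -0.84 for Nrp1, a co-receptor of semaphorins and VEGF. Nrp1 was at 20.4, 26.1, 26.9 and 9.86 CPM in the high and 42.6, 29.4, 28.3 and 41.6 in the low tumors. Clstn1, a transmembrane protein of vesicle transport, was at 111, 83.8, 110 and 110 against 120, 136, 179 and 164 CPM and lower in the Cxcl5-richer tumor of all 4 sites.

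Kdm3a, Kdm6a and Tet2 were picked from the lower genes after their values were seen. Kdm3a, a histone demethylase, was at 49.5, 49.9, 44.5 and 52.9 CPM in the high and 63.1, 56.9, 63.1 and 97.5 in the low tumors, and Kdm6a, another, at 36.8, 33.9, 33.7 and 31.2 against 41.6, 42.1, 47.3 and 52.5. Tet2, a DNA demethylase, was at 40.2 to 48.9 against 49.1 to 55.5 CPM, with 51.6 to 89.6 in the middle tumors, so for Tet2 the middle tumors did not fall between the groups. Kdm6a is X-linked, and antrum 1 is the low tumor with almost no Y-linked counts. Among tumors with Y-linked counts, where lesser curvature 3 took the place of antrum 1, Kdm6a was not separated. It stayed separated when any 1 of the 12 tumors was left out, antrum 1 included, and a part of sex was not tested. Kdm3a and Tet2 were not separated with library totals, and Tet2 was not without greater curvature 2 and corpus 1. Differences of this size also depend on the scaling: with library totals in place of TMM 36 genes were lower, of which 16 were shared with the 63, and 250 were higher, of which 169 were shared with the 203.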

How the data were processed

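Bulk RNA of 15 mouse stomach samples was analyzed from estimated counts per gene, deposited by the authors as whole numbers. A second deposited table, named for FPKM by the authors, sums to 1e+06 in each column and was read as TPM. Per the submitters' processing notes, bcl2fastq 2.19, kallisto 0.44.0, sleuth, DESeq2 and GRCm38.p6 were used, with no role or order stated; neither the annotation nor the summing of transcripts to genes is stated. Groups and replicate numbers came from the labels' titles.

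Tumors were ranked by Cxcl5 count over the column sum and the 4 highest and 4 lowest compared. Estimated counts were kept by filterByExpr (edgeR 4.0.16 in R 4.3.3, minimum count 10 over the 15 libraries), scaled by TMM and turned into CPM and log2 CPM with a prior count of 2. Sums over gene lists used library totals without TMM, and sums over antibody genes used CPM. Differences are of group means of log2 CPM and have no test, since the groups were made from the data. All tumors against normal and the F test among the 4 sites used edgeR's quasi-likelihood test in 1 model of 5 labelled groups, with Benjamini-Hochberg adjustment over 16224 genes and calls at an adjusted p under 0.05; SE is that of its log2 fold change. The fit was tested on simulated data.

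The members, gene lists, named-gene rule and motifs were chosen with earlier results of these data known. The rule names Cxcl5, CXCR2 ligands and receptors, engineered and neuroendocrine genes, the 12 largest separated differences each way at 10 CPM or more, up to 4 members of each list with the largest difference, and the 5 largest each way that agree in all sites, passing over predicted genes and antibody segments. Gene lists held 485 entries, of which 2 symbols are absent from the tables. Genes were matched by symbol, 99.3% of symbols being in GENCODE M21, the source of coordinates on GRCm38. Promoter windows are from RefSeq, on GRCm38.p6. In the shallowest library, lesser curvature 2, 1 count stands for 0.112 CPM, so values near that level rest on single counts.

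Alternatives were other numbers of tumors per group, rankings by TPM or by CPM, DESeq2 size factors, unscaled totals, no filter, a prior count of 0.5, log2 TPM with a pseudocount of 1 (genes reaching TPM 1 in at least 3 libraries), DESeq2 1.42.0, limma 3.58.1, a block for the replicate number, leaving out each library, and leaving out greater curvature 2 and corpus 1 together. Ranking by CPM and using only tumors with Y-linked counts were added after the data were seen.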

Additional observations from a re-analysis of the deposited data

Results flagged for a closer look

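Over the 4 high and the 4 low tumors, 38 genes other than Cxcl5 were examined in 76 groups of 4 for a sample far from the other 3. The measure was the gap to its neighbor over the range of the group, both in log2 CPM, against the 95% critical value of Dixon's ratio. The values in brackets are in CPM, on which the ratio would differ. This gave 8, and chance gives about 1 in 20. In the high tumors Syp was far lower in greater curvature 2 (5.71 CPM, next 56.7, ratio 0.886), Tut4 was lowest in the same tumor (32.3 CPM, next 53.7, ratio 0.931), and Gjb2 was far higher in lesser curvature 2 (59.0 CPM, next 3.25, ratio 0.959), where Clstn1 was lowest (83.8 CPM, next 110, ratio 0.963). Antrum 3 was the lowest high tumor in Frem2 (2.70 CPM, next 14.2, ratio 0.882) and in Rapgef5 (13.7 CPM, next 17.1, ratio 0.913). For Krtdap in corpus 3 and Cnfn in antrum 2 the ratio of 1 came from a low group in which the other 3 tumors were at 0 (0.0541 and 0.0583 CPM).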

How the results depend on the processing

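The number of separated genes depended on where the ranking was cut. With 3 tumors against 3 there were 501 higher and 236 lower, with 6 against 6 there were 16 higher and 6 lower, and leaving out 1 tumor gave 139 to 264 higher and 51 to 143 lower. Without greater curvature 2 and corpus 1 there were 111 higher, of which 49 were shared with the 203, and with only tumors that have Y-linked counts 117 higher, of which 96 were shared. The lower genes fell to 36 with unscaled totals and 27 on log2 TPM, and numbered 96 with no filter. Without greater curvature 2 and corpus 1, 1920 genes were higher and 1205 lower inside all 4 sites. For all tumors against normal, leaving out 1 library gave 1145 to 3395 higher and 1321 to 3505 lower genes in edgeR; leaving out normal 2 or normal 3 took the higher ones to 1352 and 1145, and limma on log2 TPM called 5739 higher and 551 lower. The 4 sites gave 0 to 16 genes with 1 library left out, 164 in DESeq2 and 3 in limma. Without normal 2 the tumor against normal difference turned positive for 7 genes; over the leave-outs its log2 value ran from -7.26 to 2.41 for Rptn, -6.73 to 0.87 for Dmkn, -4.73 to 3.93 for Dsg3, -9.69 to 4.36 for Krtdap, -8.22 to 3.92 for Cnfn, -3.43 to 0.59 for Gjb2 and -10.19 to 4.75 for Sprr3, the highest being without normal 2. The cause was not tested in these cases, beyond the fewer or other samples each uses. With the replicate number as a block the tumors had 2896 higher and 2851 lower genes and the sites 0. Same-numbered samples of different groups deviated with correlations of -0.566 to 0.693 over 30 pairs, 17 of them over 0.1. The main model used no pairing by number and treated the 15 libraries as independent, so its p-values do not account for a source that a number may share. Of the 18 pairs without corpus 16 were over 0.1, of the 12 with corpus 1 was, and 3 of the 4 high tumors carry number 2. Of 3974 differences between high and low tumors of named genes under the alternatives, 3871 moved by less than the spread within groups and 0 were reversed. Depth limits values under about 1 CPM, among them those of Cxcl15 in every tumor. They also include those of Csf3, Pou2f3 and many antibody segments in the low tumors.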

Other observations

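Coagulation and acute phase genes had a median of 0.82, with 3 of 9 separated and higher, namely Plat, Hp and Saa3. Intestinal epithelium had a median of 1.23 with 0 of 9 separated, adipocytes 0.55 with 0 of 4, and antral glands -0.48 with 0 of 4. Fibroblast and matrix genes had a higher mean in the Cxcl5-high tumors for all 14 members with a median of 0.58, and 1, Thy1, was separated at 16.3 to 23.4 against 9.72 to 14.8 CPM. Pit and neck mucous genes (median 1.02, 0 of 10 separated) and pan-epithelial genes (median 0.98, 0 of 11) had antrum 1 as the lowest of the 8 tumors in their summed level: Muc5ac, the surface mucin, was at 6522, 7303, 15172 and 28.8 CPM in the low tumors. Pancreatic acinar genes had the lowest median, -2.49 over 9 genes, with 0 separated; Cpb1, a digestive carboxypeptidase, was at 1.78, 0.895, 51.0 and 0.385 CPM in the high and 24.4, 13, 125 and 59.1 in the low tumors, with 324 in greater curvature 1. Smooth muscle genes were called lower in tumors than in normal tissue for all 12 by edgeR, with a median of -0.25 between the high and low tumors. Mitochondrially encoded genes had a lower mean for all 9, with a median of -0.28, and 0 were separated. Interferon response genes had a median of 0.05, antigen presentation 0.07, glycolysis and hypoxia -0.04 and immediate early genes -0.06, each with 0 separated.

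Some separated genes outside the lists had high levels. Aldh1a3, a retinoic acid synthesis enzyme, was at 251, 75.5, 77.4 and 167 CPM in the high and 41.7, 41.8, 75.0 and 4.18 in the low tumors. Lrg1, an acute phase glycoprotein, was at 30.8 to 81.3 against 3.57 to 19.8 CPM, and Hif1a, the oxygen-regulated transcription factor, at 180 to 282 against 69.0 to 174. Olfr1033, annotated as an olfactory receptor, was at 71.2 to 197 CPM in the high tumors and 14.3 to 56.6 in the low tumors, with 363 in normal 1. These genes were picked after their values were seen.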
